A study of Mus musculus with 9 samples.

Results

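The control cells of this study were B16 cells, a mouse melanoma line, carrying a control hairpin that the labels spell shCotrol. They gave 3 of the 9 sequenced libraries, and every value here comes from those 3, chosen by their labels. The other 6 libraries come from cells with hairpins named shAD4_1 and shAD4_2 and are not compared here. The title of the study concerns ADGRL4, an adhesion G protein-coupled receptor, in tumour dormancy, Gαs-YAP1 signalling and angiogenesis. The cells grew in DMEM with fetal bovine serum and antibiotics, and the labels name skin as the tissue and melanoma as the cell type. The controls carry a hairpin themselves, so they are not untransduced B16 cells, and whether they are a clone or a pool is not given in the sources used here. The design text calls the replicates biological but does not say whether they came from separate cultures, so the spread and p-values below measure only the differences between these libraries, which may be technical.

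Melanocytes are pigment cells of neural crest origin. They make melanin inside melanosomes, organelles related to lysosomes, with the enzymes tyrosinase (Tyr), tyrosinase-related protein 1 (Tyrp1) and dopachrome tautomerase (Dct). The transcription factor MITF drives many pigment genes, and SOX10 and PAX3 act on Mitf itself. Interferons bind receptors at the cell surface and, through JAK kinases and STAT proteins, switch on antiviral and antigen presentation genes.

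Each library was sequenced to a depth of 31.5, 34.5 and 36.4 M reads counted in genes (replicates 1, 2 and 3). Levels are the deposited FPKM, reads scaled by the length of the gene and by the counted reads of the library, which allow comparison between genes. A gene was called expressed at a level of at least 1 FPKM in each of the 3 libraries. Values are mean ± SD with n = 3, and the precision of low levels is limited by counting: 3 reads, the most that a count of 0 allows, equal 0.0825 to 0.0953 CPM (reads scaled to library size alone) in a single library. Intervals of this kind cover counting error only.

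The promoter windows of 6 genes that represent the prominent programmes of these cells, pigment and interferon response, are shown first, since their levels are described below. Each is the stretch of 250 bases before the RefSeq gene start on GRCm38.p6, read on the gene's own strand. Capitals mark a match to the M-box letters TCATGTG, a MITF site in pigment genes, or to the core of the interferon-stimulated response element, the letters GAAA, any 2 bases and GAAA again. Both were searched on either strand, where they read CACATGA and TTTC, any 2 bases and TTTC. The pigment genes come first.

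Tyr (chr7:87493513-87493762, minus strand): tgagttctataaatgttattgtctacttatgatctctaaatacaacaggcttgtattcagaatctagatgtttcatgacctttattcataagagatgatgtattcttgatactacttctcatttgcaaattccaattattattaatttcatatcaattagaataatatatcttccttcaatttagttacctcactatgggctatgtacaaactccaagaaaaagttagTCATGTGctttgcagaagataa
Tyrp1 (chr4:80833963-80834212, plus strand): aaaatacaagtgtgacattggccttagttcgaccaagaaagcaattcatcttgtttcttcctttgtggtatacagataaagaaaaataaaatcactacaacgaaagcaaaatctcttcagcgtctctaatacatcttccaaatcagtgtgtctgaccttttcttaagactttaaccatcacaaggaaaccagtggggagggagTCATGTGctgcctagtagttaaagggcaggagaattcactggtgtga
Dct (chr14:118052247-118052496, minus strand): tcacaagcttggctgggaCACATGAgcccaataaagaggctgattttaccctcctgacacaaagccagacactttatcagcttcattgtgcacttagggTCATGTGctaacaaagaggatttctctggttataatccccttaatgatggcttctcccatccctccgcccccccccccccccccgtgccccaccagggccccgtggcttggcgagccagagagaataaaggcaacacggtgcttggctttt
Isg15 (chr4:156200819-156201068, minus strand): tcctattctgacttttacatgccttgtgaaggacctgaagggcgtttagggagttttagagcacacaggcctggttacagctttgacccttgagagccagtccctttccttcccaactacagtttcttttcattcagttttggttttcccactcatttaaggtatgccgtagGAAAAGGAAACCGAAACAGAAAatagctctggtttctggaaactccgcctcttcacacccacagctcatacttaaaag
Ifit1 (chr19:34640639-34640888, plus strand): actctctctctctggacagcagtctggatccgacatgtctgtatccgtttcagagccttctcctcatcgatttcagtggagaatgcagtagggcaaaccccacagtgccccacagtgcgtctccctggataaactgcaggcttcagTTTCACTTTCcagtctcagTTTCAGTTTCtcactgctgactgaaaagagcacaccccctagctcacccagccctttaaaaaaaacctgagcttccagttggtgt
Rsad2 (chr12:26456453-26456702, minus strand): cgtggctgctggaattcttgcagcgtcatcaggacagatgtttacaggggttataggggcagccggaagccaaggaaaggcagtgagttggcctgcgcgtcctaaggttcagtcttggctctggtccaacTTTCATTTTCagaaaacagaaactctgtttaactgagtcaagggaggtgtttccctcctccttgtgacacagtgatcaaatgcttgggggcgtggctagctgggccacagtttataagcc

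The single M-box match of Tyr began 22 bases before the start and that of Tyrp1 began 47 bases before it. Dct held 2 matches, 232 and 151 bases before its start. Of the 20 pigment and melanosome genes with a window, 7 (35.0%) held a match, namely Tyr, Tyrp1, Dct, Slc24a5, Trpm1, Hps1 and Tspan10, against 3.72% of 27025 genes with a window and 2.15% of the 8739 expressed ones. The interferon letters stood in 26 of 47 interferon-induced genes with a window (55.3%), against 3.46% of all genes and 2.94% of expressed genes. They stood in 0 of the 20 pigment genes, too few windows to tell this from the low share over all genes. The M-box letters stood in 2 of the 47 interferon-induced genes (4.26%), near the 3.72% of all genes. In Isg15 the 3 matches overlap and read as a single stretch of capitals. A match is a description of letters, and no binding was measured here.

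Replicate 1 stood apart from the other control libraries, and counts of genes beyond counting error and summary CVs are given with and without it. Over the 10729 expressed genes the median fold difference between libraries was 1.07 for replicates 1 and 2, 1.08 for 1 and 3, and 1.04 for 2 and 3. Spearman's rho across genes, which are not independent replicates, was 0.995, 0.994 and 0.998 for the same pairs. Replicate 1 held the highest or the lowest value of 82.5% of expressed genes, replicate 2 of 49.2% and replicate 3 of 68.3%, with a tie counted for the first of the tied libraries only. Mitochondrially encoded genes took 2.61%, 2.44% and 2.30% of the reads in replicates 1, 2 and 3. Whether RNA quality or handling differed was not tested.

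Of the 21676 genes in the tables, 10729 (49.5%) were expressed, with a median of 11.4 FPKM. Among genes annotated protein-coding 10280 (64.3%) were expressed, and among those annotated non-coding 449 (7.88%). Counts of expressed members of a list are to be read beside these shares. No read fell in 2685 genes (12.4%) in any of the 3 libraries. Because each gene of the tables has at least 1 read in some of the 9 libraries, these 2685 are not a count of silent genes of the mouse genome. A few genes dominated: 38 genes had a mean of 1000 FPKM or more and took 9.52% of the reads, and 50% of all reads fell in 1104 genes. The 5219 genes between 10 and 100 FPKM held 52.5% of the reads.

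**Figure D1:**
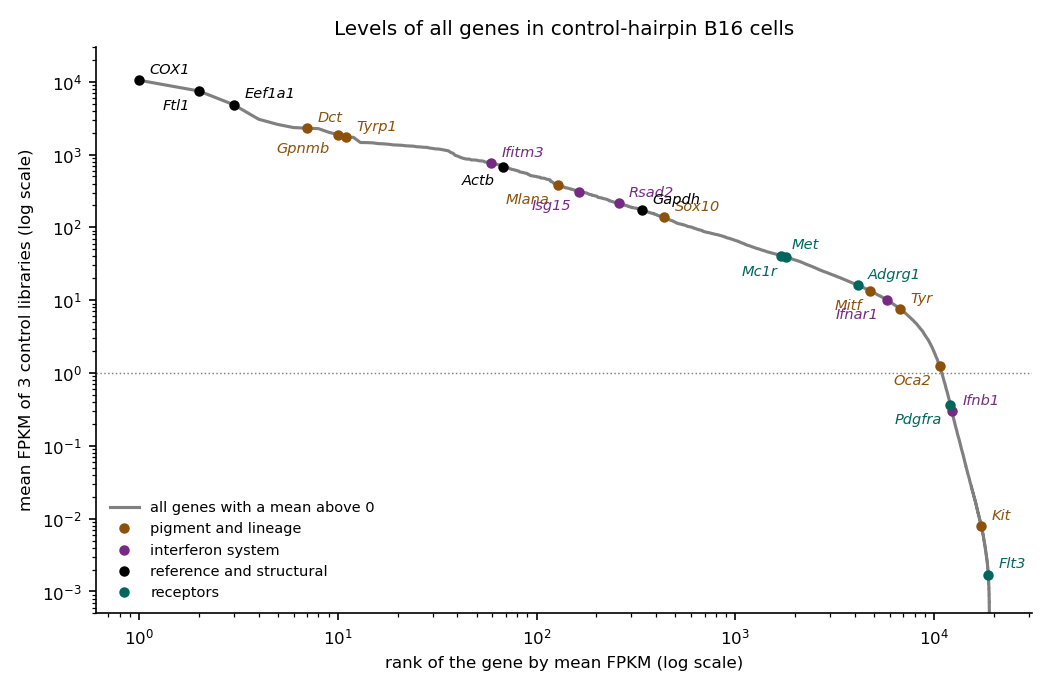
Mean FPKM of each gene over the 3 control libraries (log scale) against its rank (log scale), with named pigment, interferon, reference and receptor genes as coloured points and a dotted line at 1 FPKM. Dct, Gpnmb and Tyrp1 lie among the first 11 genes, Mitf and Tyr lie at ranks 4776 and 6736, and Kit and Flt3 lie near the bottom of the curve.

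The most abundant transcript was COX1, the mitochondrially encoded subunit 1 of cytochrome c oxidase, at 9983, 10939 and 10544 FPKM in replicates 1, 2 and 3, or 1.62 ± 0.0743% of the reads. Ftl1, the ferritin light chain that stores iron, followed at 7469 ± 767 FPKM, and its partner Fth1, the heavy chain, ranked 8 at 2269 ± 209 FPKM. The ratio of Ftl1 to Fth1 levels was 3.29 ± 0.0754. Both ferritin genes have near-identical copies in the genome, so reads could be split or dropped and the levels are uncertain. Translation genes filled much of the rest: 8 of the first 20 genes and 54 of the first 100 encode cytosolic ribosomal proteins, which together took 5.29 ± 0.250% of the reads. Eef1a1, which brings aminoacyl-tRNA to the ribosome, stood at 4833 ± 29.6 FPKM, Rpl32 at 2589 ± 253 and Rplp1 at 2347 ± 155. The ribosomal genes and Eef1a1 also have many processed copies, with the same uncertainty.

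Beside these genes of general use, 3 pigment genes stood among the first 20. Dct stood at 2395, 2299 and 2233 FPKM (2309 ± 81.4, rank 7). Gpnmb, a melanosome and lysosome glycoprotein, stood at 1992, 1853 and 1799 FPKM (1881 ± 99.7, rank 10). Tyrp1 stood at 1943, 1692 and 1605 FPKM (1747 ± 176, rank 11). Dct lay above both in every library. The ranges of Gpnmb and Tyrp1 overlapped, with Gpnmb the higher within each library. Together the 3 genes took 1.74 ± 0.106% of the reads. In bulk RNA a smaller share of cells with a transcript and less of it per cell cannot be told apart, which holds for all levels given here.

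Of the 25 pigment and melanosome genes, 24 were expressed, 18 had a mean of over 10 FPKM and 8 of over 100. The median over the 25 was 23.7 FPKM, against 1.08 over all genes, non-coding ones included. Over expressed genes alone it was 24.6 FPKM for the list and 11.4 for all. Cd63, a tetraspanin of melanosomes and other endosomes, stood at 475 ± 8.47 FPKM. Mlana, a melanosomal membrane protein, was at 450, 352 and 337 FPKM and Pmel, which forms the fibrils of the organelle, at 370, 312 and 291 FPKM. Replicate 1 was the highest for both, and the ranges of the 2 genes overlapped, with Mlana the higher within each library. The transporters that tune melanosome ions and pH were graded, with Slc24a5 at 151 ± 22.4, Slc45a2 at 85.5 ± 14.6, Oca2 at 1.24 ± 0.189 and Slc24a4 at 1.03 ± 0.377 FPKM. Slc24a4 was the member that did not reach 1 FPKM in each library (1.43, 0.968 and 0.686 FPKM).

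Tyr, the rate-limiting enzyme of melanin synthesis, was far below the other enzymes of the pathway. Its level was 9.35, 7.17 and 6.26 FPKM (7.60 ± 1.59, rank 6736), from 2094, 1762 and 1618 reads. The ratio of Dct to Tyr in FPKM was 256, 320 and 357 in the 3 libraries (311 ± 51.0), and that of Tyrp1 to Tyr was 233 ± 24.4. Tyr lay beside Lyst, a lysosomal trafficking gene, at 7.67 ± 0.251 FPKM, and Trpm1, a channel of melanocytes, at 6.18 ± 0.525, and its range overlapped both. FPKM divides by the gene length used by the authors, which is 7108 bases for Tyr and 2263 for Dct. Even in reads, with no division by length, Dct had 170717, 179751 and 183813.

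Genes that build, move and place melanosomes were expressed over a wide range of levels. Rab38, which sorts pigment enzymes to the organelle, stood at 186 ± 18.0 FPKM and its relative Rab32 at 11.5 ± 2.18. The capture complex at the actin network was present in all 3 parts, Rab27a at 25.6 ± 1.01, Mlph at 23.1 ± 2.62 and Myo5a at 29.5 ± 2.40 FPKM. The copper transporter Atp7a, which supplies tyrosinase, was at 20.8, 20.7 and 20.7 FPKM. Syngr1 stood at 35.2 ± 1.96 FPKM and Tspan10 at 23.7 ± 3.92. Genes mutated in Hermansky-Pudlak syndrome, which act in melanosome assembly, ran from Hps5 at 18.2 ± 1.04 through Hps4 at 8.48 ± 0.323 to Hps1 at 5.45 ± 0.150 FPKM. Gpr143, a receptor in the melanosome membrane, stood at 11.6 ± 1.74.

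Among 19 lineage factors and receptors with a row, 11 were expressed (57.9%, beside 49.5% of all genes). The median over the 19 was 4.43 FPKM. Ets1 (146, 138 and 135 FPKM) and Sox10 (135, 136 and 139 FPKM) were highest and their ranges overlapped. Pax3 stood at 33.4 ± 1.77 FPKM. Mitf was lower, at 16.6, 12.1 and 11.4 FPKM (13.4 ± 2.82, rank 4776), and highest in replicate 1. The ratio of Sox10 to Mitf was 10.5 ± 2.15 and ran from 8.12 in replicate 1 to 12.2 in replicate 3. The MITF relatives Tfe3 and Tfeb stood at 23.9, 26.9 and 26.4 FPKM and at 2.39 ± 0.243 FPKM. Zeb2, a factor of differentiated melanocytes, was at 20.4 ± 0.942, Tfap2a at 4.64 ± 0.164 and Id3 at 4.43 ± 0.343 FPKM.

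Receptors of the lineage split into 2 sets. Mc1r, the receptor for melanocyte-stimulating hormone, stood at 40.1, 39.4 and 38.2 FPKM, and Erbb3, a neuregulin receptor of the neural crest, at 22.6, 22.5 and 20.9 FPKM. Kit, the receptor that melanocyte precursors need for survival, had 3, 0 and 1 reads (0.00790 FPKM). Ednrb, the endothelin receptor of the lineage, had 0 reads in each library, which allows at most 0.00515 FPKM over the group. Irf4, a pigmentation factor, also had 0 reads, which allows 0.00612 FPKM, and Lef1 had 2 reads in all. Sox5 at 0.795 and Sox9 at 0.727 FPKM lay just under the threshold in mean level, Kitl stood at 0.0277 FPKM and Tfap2b at 0.0172.

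**Figure D2:**
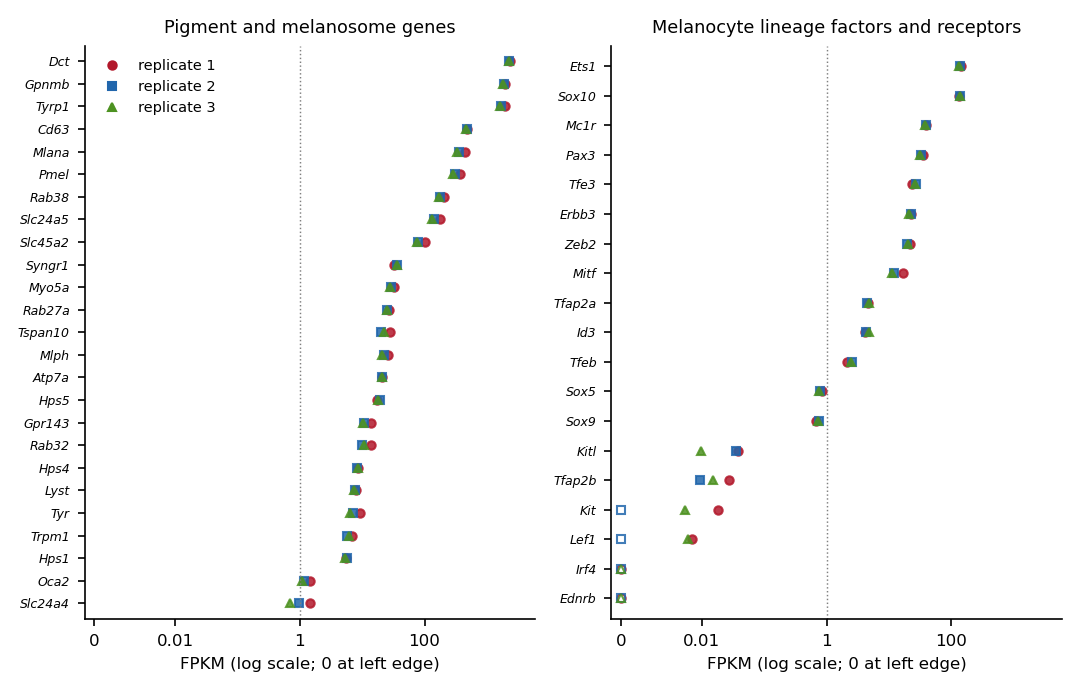
FPKM of each pigment and melanosome gene (left) and lineage factor or receptor (right) in the 3 control libraries on a log scale, with values of 0 as open symbols at the left edge and a dotted line at 1 FPKM. Dct, Gpnmb and Tyrp1 lie above 1000 FPKM and Tyr between 6.26 and 9.35, while Kit, Lef1, Irf4 and Ednrb lie at or near 0.

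Of 17 mesenchymal and dedifferentiation genes with a row, 7 were expressed. Vim, an intermediate filament, stood at 250, 215 and 221 FPKM (229 ± 18.9). Fn1, the matrix protein fibronectin, was at 28.9 ± 3.58 FPKM and was lowest in replicate 1 (24.8). The kinase receptor Axl at 13.2 ± 1.41, N-cadherin (Cdh2) at 12.7 ± 0.229 and Nes at 11.1 ± 2.04 FPKM had ranges that overlapped from each to the next. Snai2 stood at 4.06 ± 0.154 FPKM and Ngfr, a neural crest receptor, at 2.88 ± 0.501. The epithelial cadherin Cdh1 had 2 reads in each library (0.0133 FPKM), and Fosl1, Cdh3 and Tnc had 0 reads. Zeb1 had 29, 17 and 15 reads (0.0147 FPKM) beside Zeb2 at 20.4.

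Markers of other cell types were few. Of 8 keratinocyte genes with a row only Sfn was expressed (2.90 ± 0.463 FPKM), and the summed level of the list was 2.59 to 3.41 FPKM over the libraries, with Krt15 at 0 reads. Of 12 immune markers only Cd68 (2.63 ± 0.182) and Lcp1 (1.15 ± 0.0276) were expressed, with a summed level of 4.84 to 5.37 FPKM, and Ptprc, the pan-leukocyte antigen, had 0 reads. Of 9 endothelial markers only Egfl7 was expressed (30.8 ± 4.36), with a summed level of 26.1 to 34.8 FPKM, while Cdh5, Flt1 and Erg had 0 reads. Fibroblast markers gave 3 of 11, Pdpn at 13.2 ± 0.663, Pdgfrb at 7.35 ± 0.505 and Col5a1 at 5.04 ± 0.663 FPKM, with a summed level of 25.8 to 27.1 FPKM, and the defining matrix genes Col1a1, Col1a2 and Col3a1 were at 0.432, 0.116 and 0.0156 FPKM. Of 19 genes of other organs, such as liver, muscle and blood, 0 were expressed and the highest was Ckm at 0.848 FPKM.

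Schwann cell and neural markers were more frequent than these, with 8 of 13 expressed (61.5%) and a summed level of 245 to 259 FPKM. That share is near those of all genes (49.5%) and of protein-coding genes (64.3%). Tubb3, a neuronal tubulin, stood at 74.7 ± 7.06 FPKM, S100b, a calcium-binding protein of glia and melanocytes, at 67.2 ± 1.76, and Mbp, a myelin protein, at 55.9 ± 0.553. The adhesion molecules L1cam at 14.1 ± 1.31 and Ncam1 at 13.5 ± 1.66 FPKM had ranges that overlapped. Egr2, a factor of myelinating Schwann cells, was at 0.0524 FPKM and Foxd3 had 0 reads. The 7 markers set for the labelled melanocytic type, Tyr, Tyrp1, Dct, Pmel, Mlana, Mitf and Sox10, were each expressed. What part other cells have in the neural markers was not tested.

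Of 21 interferon ligand genes on the list 5 had a row, each below 1 FPKM in the 3 libraries, and the others were not analysed here. Ifnb1, interferon beta, had 5, 13 and 6 reads (0.303 FPKM), Ifnz 4, 3 and 1, Ifne 2, 0 and 0, Ifna4 0, 1 and 0, and Ifna2 0 in each library. The transcripts of these genes are short and most have close relatives in sequence, so their few reads are uncertain. By contrast 21 of the 24 receptor and signalling genes were expressed.

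The receptor chains for type I interferon, Ifnar1 (9.78, 9.99 and 10.3 FPKM) and Ifnar2 (10.4, 11.2 and 10.9 FPKM), lay below the median of expressed genes, 11.4 FPKM. The chains for interferon gamma were Ifngr1 at 14.3 ± 0.701 and Ifngr2 at 40.2 ± 1.25 FPKM, and Ifnlr1, for lambda interferons, was at 0.535 beside its partner Il10rb at 30.9 ± 2.74. The kinases followed the order Jak1 at 39.8 ± 1.25, Jak2 at 8.95 ± 0.414 and Tyk2 at 7.44 ± 0.0638 FPKM. Of the signal transducers, Stat2 stood at 21.7 ± 1.73 and Stat3 at 30.5 ± 2.98 FPKM. Irf9, the DNA-binding partner in the complex that type I interferon forms, stood at 31.3 ± 2.06 and Irf7 at 23.1 ± 2.08 FPKM. Irf1 at 15.1 ± 1.78 and Irf3 at 13.8 ± 0.678 were followed by Irf2 at 2.39 ± 0.106 and Irf5 at 1.15 ± 0.122, and the leukocyte factor Irf8 had 0 reads. Of the brakes on the pathway, Usp18 was the highest signalling gene at 208, 201 and 190 FPKM, Pias1 stood at 8.49 ± 0.239, Ptpn2 at 7.00 ± 0.322 and Socs3 at 3.63 ± 0.359, while Socs1 was at 0.399 FPKM.

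Interferon-induced genes were broadly present, 49 of 57 with a row, of which 42 had a mean of over 10 FPKM and 9 of over 100. The median over the 57 was 28.6 FPKM against 1.08 over all genes, non-coding ones included. Over expressed genes alone it was 34.7 FPKM for the list and 11.4 for all. The list took 0.873%, 0.788% and 0.758% of the reads in replicates 1, 2 and 3. Ifitm3, which blocks virus entry, was highest at 784, 745 and 741 FPKM (757 ± 23.6, rank 59). Bst2, which tethers budding virions, stood at 379 ± 9.29 FPKM. The ubiquitin-like modifier Isg15 stood at 351, 294 and 281 FPKM, overlapping Ifi27 at 269, 284 and 294. Cxcl10, a chemokine that attracts T cells, was at 240 ± 8.40 FPKM and Rsad2, the antiviral enzyme viperin, at 214 ± 8.00. Replicate 1 was highest for each of these but Ifi27.

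Members of some families stood far apart, with Oas3 and Ifitm1 at or near 0 beside well-read relatives. Oas1a, an RNA-sensing synthetase, stood at 81.8 ± 2.68 and Oas1g at 49.8 ± 0.734 FPKM, but Oas2 at 7.56 ± 1.14 and Oas3 at 0.0434 FPKM from 7, 4 and 11 reads. Ifitm2 was at 71.3 ± 2.72 FPKM while Ifitm1 had 1 read in all. Of the Ifit genes, Ifit3 stood at 146 ± 4.49, Ifit1 at 79.1 ± 9.37, Ifit3b at 41.6 ± 1.73 and Ifit2 at 20.7 ± 1.56. Oas1a with Oas1g, Ifit3 with Ifit3b, and Apol9a with Apol9b are near-identical pairs whose counts may be divided between members, so the split within each pair is uncertain. Slfn2 stood at 3.03 ± 0.123 FPKM and Slfn5 had 4 reads in all, and Zbp1 was at 0.529 FPKM. Oas3 and Slfn5 were among the genes whose upstream windows held the interferon letters.

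**Figure D3:**
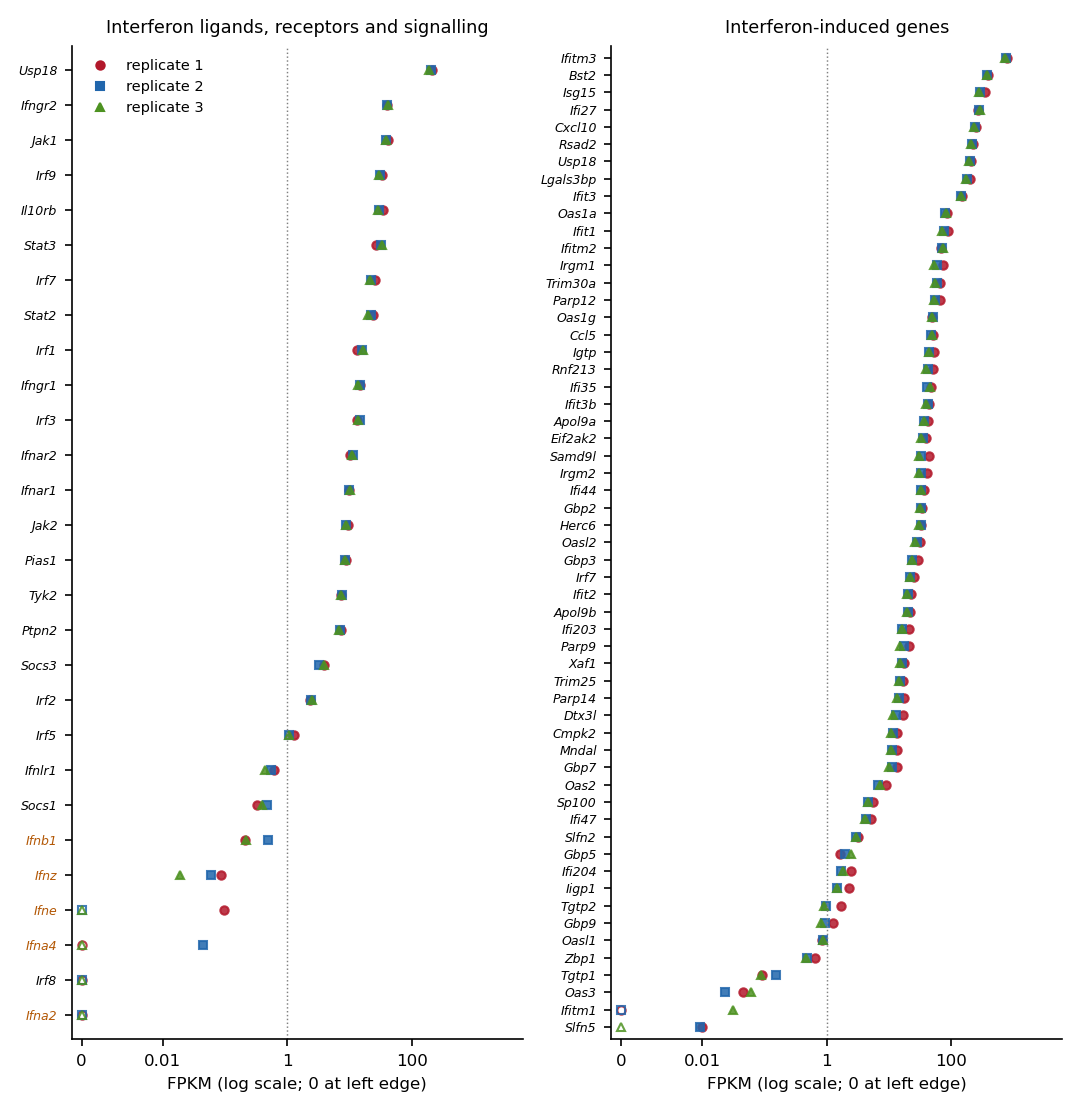
FPKM of interferon ligands (orange names), receptors and signalling genes described here (left) and of interferon-induced genes (right) in the 3 control libraries, on a log scale with values of 0 as open symbols at the left edge. The 5 ligands lie below 1 FPKM (dotted line), whereas 49 of 57 induced genes lie above it in each library, from Ifitm3 at 757 FPKM downward.

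Sensors of foreign nucleic acid were expressed in 21 of 28 cases. The RNA helicase RIG-I, listed as Ddx58, stood at 87.2, 81.7 and 81.9 FPKM, above its relatives Dhx58 at 23.8 ± 0.490 and Ifih1 (MDA5) at 20.3 ± 2.21. Eif2ak2, the kinase PKR, was at 36.1 ± 3.43, Adar at 34.3 ± 1.70 and the nucleotide hydrolase Samhd1 at 30.0 ± 1.30 FPKM. Of the DNA-sensing pair, the enzyme Cgas stood at 2.96 ± 0.570 and its adaptor Sting1 at 18.3 ± 1.23. Toll-like receptors were low, Tlr4 at 5.48 ± 1.18 and Tlr3 at 5.39 ± 1.09 FPKM with overlapping ranges, and Tlr7 had 0 reads. The NF-kB factors Nfkb1 and Rela stood at 19.5 ± 0.528 FPKM and at 12.2, 12.3 and 11.5 FPKM, and Nfkbia, an inhibitor and target of the pathway, at 12.4, 16.8 and 16.2.

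Antigen presentation by MHC class I was represented in 19 of 21 genes, unevenly. B2m, which pairs with every heavy chain, stood at 1393, 1394 and 1425 FPKM (1404 ± 18.3, rank 17). The heavy chain genes were H2-D1 at 265, 312 and 327 FPKM and H2-K1 at 64.3, 81.0 and 83.9, a ratio of 3.96 ± 0.146, with replicate 1 lowest for both. These genes are alike in sequence and their split is uncertain. The chaperones Calr (291 ± 2.89), Canx (216 ± 3.29) and Pdia3 (187 ± 2.89 FPKM) stood above the peptide transporter genes Tap1 (12.5 ± 0.773) and Tap2 (9.16 ± 1.13). The immunoproteasome subunits were low, Psmb10 at 7.23 ± 0.297 FPKM, Psmb9 at 1.56 ± 0.264 and Psmb8 at 0.179 FPKM from 4, 4 and 15 reads, while the activator subunits Psme2 and Psme1 stood at 77.5 ± 2.72 and 52.8 ± 3.17.

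Of 9 MHC class II genes with a row 2 were expressed. Cd74, the invariant chain, stood at 44.8, 53.9 and 54.4 FPKM (51.0 ± 5.40) and H2-DMb1 at 3.17, 3.49 and 4.15. The chain gene H2-Aa had 1 read in all, H2-Eb1 had 5, and Ciita, the master regulator of the class, had 3 reads, all in replicate 3. Among ligands of immune receptors 10 of 20 were expressed. Lgals3 at 157 ± 2.11 and Lgals9 at 125 ± 6.13 FPKM, both galectins, led them, followed by Nectin2 at 27.9 ± 2.40, Pvr at 20.3 FPKM in its highest library and 19.5 in its lowest and the phagocytosis signal Cd47 at 13.0 ± 0.134. Cd274, which encodes PD-L1, stood at 7.00, 8.13 and 9.22 FPKM, while Pdcd1lg2 was at 0.0211 FPKM, and Cd200 and Cd24a had 0 reads.

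Of 30 chemokine and cytokine genes with a row 12 were expressed, a share a little below the 49.5% of all genes. In level a few of them led, beside a summed level of the list of 1021.5, 1086 and 1089 FPKM in replicates 1, 2 and 3. Mif, a cytokine and tautomerase, stood at 578, 646 and 659 FPKM. After Cxcl10 came Csf1, the macrophage growth factor, at 55.8 ± 5.84, Ccl5 at 48.9 ± 2.45 and Cxcl1, a chemokine for neutrophils, at 44.1 ± 3.28 FPKM. Csf1 and Ccl5 overlapped, as did Ccl5 and Cxcl1. Of the TGF-beta genes, Tgfb3 stood at 18.1 ± 1.48, Tgfb1 at 10.8 ± 1.70 and Tgfb2 at 2.13 ± 0.191. Il6 had 6, 1 and 4 reads and Tnf 8, 10 and 20 reads.

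Of 43 receptor tyrosine kinases with a row, 14 (32.6%) were expressed, 0 of them above 100 FPKM. The highest were Ddr2, a collagen receptor, at 46.4, 42.0 and 40.2 FPKM, the pseudokinase Ryk at 40.2, 41.4 and 42.3, and Met, the receptor of hepatocyte growth factor, at 43.6, 40.6 and 38.9. The ranges of the 3 overlapped. Ddr2 lay above Met in every library, while the place of Ryk changed from library to library. Below Erbb3 and Axl came Epha3 at 11.2, 12.4 and 12.2 FPKM, Insr at 9.45 ± 0.425 and Ddr1 at 8.56 ± 0.121 FPKM. Flt1, Musk, Ret and Epha6 had 0 reads. Ligands were mostly low: Hgf had 0 reads and Gas6, a ligand of Axl, had 2 in all, while Pros1, another ligand of the Axl family, was at 9.12 ± 0.589 FPKM. Pomc, the precursor of melanocyte-stimulating hormone, stood at 2.49, 2.97 and 3.74 FPKM beside its receptor Mc1r.

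Among 48 G protein-coupled receptors of other classes 17 were expressed. After Mc1r came Smo, the hedgehog transducer, at 31.5, 31.1 and 31.3 FPKM, the Wnt receptor Fzd7 at 25.1 ± 1.48 and S1pr2 at 13.7 ± 0.530. Ednra, Lpar1 and S1pr5 had 0 reads. Of 21 adhesion G protein-coupled receptors with a row, the family the study is about, 7 (33.3%) were expressed. They were Adgra3 (31.8, 34.3 and 34.3 FPKM), Adgrl2 (20.6, 21.6 and 22.1), Adgrg1 (15.8, 15.7 and 16.5), Adgra2 (15.1 ± 1.38), Adgre5 (8.12 ± 0.741), Adgrl1 (5.78 ± 0.203) and Celsr2 (4.05 ± 0.406). Only Adgrg1 and Adgra2 overlapped among neighbours in this order, and Adgrl3 and Adgrg6 were among 6 with 0 reads. Adgrl4 was not analysed here.

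The Gs and Hippo pathway, named in the study's title, was represented by 28 expressed genes of 35. Gnas, the stimulatory G protein, stood at 173, 188 and 193 FPKM. Of the adenylyl cyclases it activates, Adcy3 was at 9.08 ± 0.173, Adcy7 at 6.05 ± 0.262 and Adcy6 at 4.58 ± 0.454 FPKM, and of protein kinase A, the regulatory subunit Prkar1a was at 124 ± 1.36 and the catalytic subunit Prkaca at 47.4 ± 0.669. The coactivators were Yap1 (39.4, 35.3 and 36.2 FPKM) and Wwtr1, which encodes TAZ (28.5, 26.1 and 24.8). Both stood above Lats1 at 17.8 ± 1.54 and Lats2 at 7.64 ± 0.0927, kinases that restrain them. Another Hippo kinase, Stk4, lay next above Wwtr1 in mean level, with overlapping ranges. DNA-binding partners of the coactivators ran from Tead2 at 23.6 ± 2.28 and Tead1 at 21.7 ± 0.476, which overlapped, to Tead3 at 4.47 ± 0.135 and Tead4 at 3.20 ± 0.371. Of the classic targets, Ccn1 stood at 15.9 ± 0.901 FPKM, Ccn2 at 0.753 FPKM from 73, 41 and 70 reads, and Ankrd1 had 0 reads.

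Of 22 angiogenic factors 8 were expressed. Vegfa, the main inducer of vessel growth, stood at 60.1, 67.1 and 66.7 FPKM, and Vegfb at 29.9, 33.1 and 34.1, a ratio of 2.00 ± 0.0371. Serpinf1, an inhibitor of vessel growth, was at 27.1, 23.5 and 24.6, Adm at 10.5 ± 0.883 and Vegfc at 7.91 ± 0.767 FPKM. Pgf, Thbs1 and Angpt2 stood between 2.01 and 2.71 FPKM with overlapping neighbours. Angpt1, Angptl4 and Thbs2 had 0 reads. Of 24 integrins with a row, Itgb1 led at 159 ± 5.47 FPKM, followed by Itgb5 at 33.8 ± 0.369, Itga6 at 23.9 ± 0.434 and Itgav at 17.1 ± 0.207, and the laminin receptor chain Itga3 was at 0.0350 FPKM.

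The 28 proliferation genes were all expressed, with a median of 23.7 FPKM. The G1 genes Ccnd2 (205, 185 and 181 FPKM) and Cdk4 (188, 187 and 186) were highest and overlapped, whereas Ccnd1 stood at 33.5 ± 5.42 and Cdk6 at 4.07 ± 0.363. Pcna, the replication clamp, was at 108 ± 3.75, Top2a at 55.1 ± 3.81 and Mki67 at 25.1 ± 1.04 FPKM. Cdkn1a, the cell cycle inhibitor p21, stood at 262, 277 and 287 FPKM together with Trp53 at 76.8, 74.3 and 71.4. Ctnnb1 was at 305 ± 2.24 FPKM, Akt1 at 220 ± 5.12 and Mapk3 at 95.8 ± 7.56. Among RAS and RAF genes, Nras stood at 27.9 ± 0.994, Braf at 18.2 ± 0.402 and Hras at 15.5 ± 0.400. Myc stood at 8.86 ± 1.09 FPKM and Tert, the telomerase subunit, at 0.315 from 39, 41 and 60 reads. Cdkn2a was not analysed here.

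All 21 glycolysis genes were expressed. Pgk1 at 1186, 1420 and 1448 FPKM and Eno1 at 1241, 1349 and 1370 overlapped at the top. Aldoa stood at 870 ± 53.4, Tpi1 at 475 ± 6.76, Pkm at 347 ± 31.5, Gpi1 at 337 ± 37.6 and Ldha at 256 ± 12.4 FPKM. Gapdh, often used as a reference, was at 149, 183 and 183 FPKM, so that Pgk1 lay 7.88 ± 0.118 times higher, and since Gapdh has many pseudogenes in the mouse that can take its reads, its level is uncertain. Eno1 exceeded the neuronal form Eno2 by 72.4 ± 0.363 times. The hexokinases Hk2 (44.5 ± 3.85) and Hk1 (39.4 ± 3.26) overlapped in range, but Hk2 was higher in every library, at a ratio of 1.13 ± 0.00872. The glucose transporters Slc2a1 and Slc2a3 stood at 24.8 ± 1.18 and 7.72 ± 0.0380.

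Reference genes, 28 of 28 expressed, covered the range from Eef1a1 down to Gusb at 9.81 ± 0.521 FPKM. Actb, the cytoskeletal actin, stood at 697, 663 and 686 FPKM and Ppia at 790 ± 43.4. Hprt at 127, 130 and 128, Vcp at 127, 123 and 127 and Actg1 at 302, 299 and 294 FPKM were close between libraries. Tfrc, the transferrin receptor, was less steady at 46.5, 35.7 and 33.9 FPKM. Genes of sex chromosomes gave Ddx3x at 82.3 ± 11.6, Eif2s3x at 47.9 ± 0.0553, Kdm5c at 9.65 ± 0.472 and Kdm6a at 5.88 to 6.97 FPKM, all X-linked, and Xist, the RNA that coats an inactive X, at 11, 26 and 4 reads (0.0225 FPKM).

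Of 28 long noncoding RNAs with a row 21 were expressed. Gas5, a host of small nucleolar RNAs, stood at 646, 732 and 802 FPKM and Zfas1 at 225 ± 18.1. Snhg1 at 173 ± 17.6, the nuclear Malat1 at 127 ± 12.6, Snhg6 at 103 ± 4.07 and Snhg12 at 85.3 ± 12.6 followed. Rian, Miat and Dnm3os had 0 reads and H19 had 1. Whether overlapping genes on the opposite strand share reads with these cannot be told, since strand use is not given in the sources used here.

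The 3 control libraries differed by more than counting error in 5667 of 10729 expressed genes, a background of 52.8%, by a chi-square test of each gene's reads against TMM-scaled library sizes with Benjamini-Hochberg adjustment. The test compares these libraries and no condition. Its reach grew with depth, from 19.9% of 241 genes with a mean of under 100 reads to 84.9% of 549 genes with 10000 reads or more. In size the differences were small: the median coefficient of variation (CV, the SD over the mean) was 5.33%, and 80.5% of genes had a CV under 10%. The CV expected from counting, 1 over the root of a gene's mean reads, had a median of 2.56%. It is an expected value and not a CV measured over 3 libraries. The CV exceeded 20% in 270 genes (2.52%). The biological coefficient of variation fitted by edgeR was 6.47%. Without replicate 1, 1365 of the same 10729 genes differed, a background of 12.7%, the median CV was 2.86% and the fitted variation 3.15%, so much of the spread rests on that library. A median CV from fewer libraries tends to be lower, so the medians with and without replicate 1 are not on quite the same scale.

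**Figure D4:**
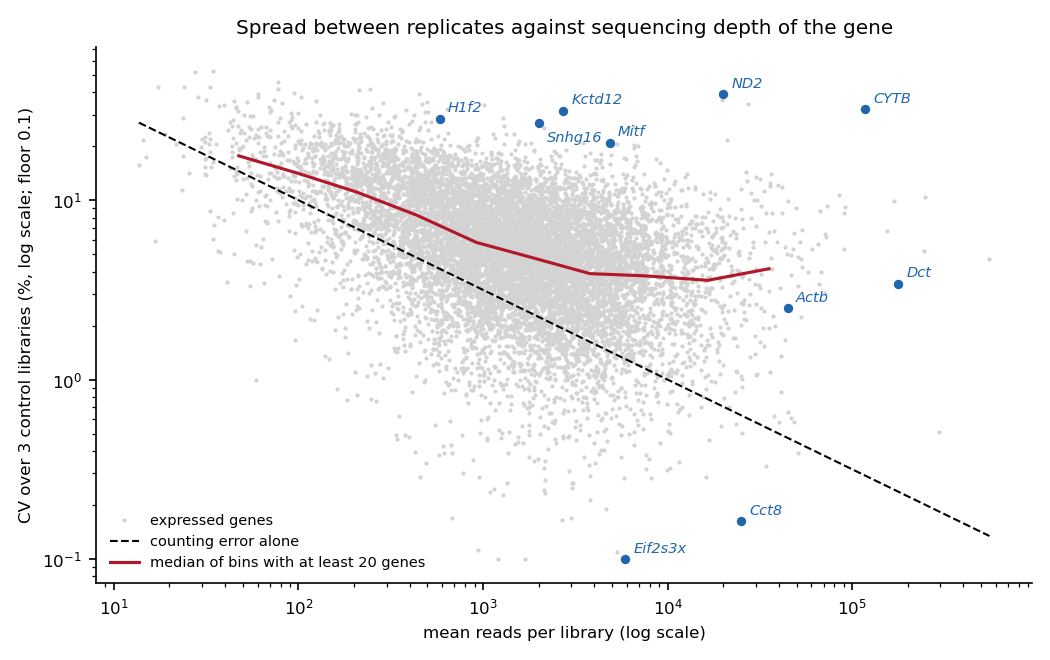
CV of each expressed gene over the 3 control libraries (%, log scale, values below 0.1 drawn at 0.1) against its mean reads per library (log scale), with the CV that counting alone gives (dashed) and the median of bins (red). The red line lies above the dashed line at all depths and stays above 3% where counting alone would give under 1%.

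Read against the 52.8% background, 19 of 24 expressed pigment genes, 46 of 49 interferon-induced, 18 of 21 glycolysis and 71 of 81 cytosolic ribosomal protein genes were beyond counting error. These lists also hold deeply counted genes, for which the share is higher. Shares above the background were not particular to these lists. They were 22 of 28 for reference genes, 21 of 28 for proliferation genes and 11 of 14 for receptor tyrosine kinases. The shares were nearer to the background for interferon receptor and signalling genes, 11 of 21, and for Gs and Hippo genes, 15 of 28. Without replicate 1, a check added after the data were seen, the background was 12.7%. The counts were 10 of 24 pigment genes, 20 of 49 interferon-induced, 6 of 21 glycolysis and 36 of 81 cytosolic ribosomal genes. They were 12 of 28 for reference genes, 2 of 21 for interferon receptors and signalling and 2 of 28 for Gs and Hippo genes. The median CV of expressed members was 8.97% for pigment genes, 8.69% for interferon-induced genes, 4.51% for lineage factors, 4.65% for interferon receptors and signalling and 4.33% for the Gs and Hippo genes. Without replicate 1 these medians were 3.66%, 3.35%, 2.72%, 2.35% and 1.95% in the same order, against 2.86% over all expressed genes.

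The gene of largest spread among those of at least 10 FPKM was ND2, a mitochondrially encoded subunit of complex I, at 832, 480 and 412 FPKM (CV 39.1%). ND4 (604, 353 and 322), ND1 (1174, 721 and 634), COX3 (53.0, 34.7 and 27.8), CYTB (4183, 2651 and 2336) and ATP6 (74.0, 51.2 and 42.8 FPKM) showed the same order of libraries. COX1, from the same genome, did not: it was lowest in replicate 1 (9983 against 10939 and 10544). ND5 at 1581, 1427 and 1336 FPKM lay between. The levels of these genes are uneven, with COX1 294 ± 97.3 times above COX3, and copies of mitochondrial sequence in the nuclear genome can take reads of COX1, COX2, COX3 and ATP6, so they are uncertain.

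Outside the mitochondrial genome, Kctd12, a receptor auxiliary subunit, was at 18.3, 11.1 and 10.8 FPKM, the connexin Gjc3 at 69.9, 47.0 and 44.4, and the metallothionein Mt2 at 99.1, 64.2 and 71.5. Mt1, its neighbour in function, was at 62.1 FPKM in each library and among the 6 steadiest genes (CV 0.164%). Lower in replicate 1 were the linker histone H1f2 (15.8, 25.6 and 28.3 FPKM) and the small nucleolar host RNA Snhg16 (19.99, 33.4 and 33.5). The steadiest gene was Eif2s3x at 48.0, 47.8 and 47.9 FPKM, and Incenp, Trappc5, Cct8 (305, 305 and 305 FPKM) and Mt1 were also among the 6 of lowest CV. A CV below the counting CV, as for these genes, is what the lowest values among many genes give.

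Replicate 1 was compared with the mean of replicates 2 and 3 as a description with no test, on TMM-scaled CPM. The median log2 ratio over expressed genes was 0.00. Replicate 1 exceeded the others by 1.2-fold or more in 645 genes and fell short by as much in 657. By list, 21 of 24 expressed pigment genes, 44 of 49 interferon-induced genes and 23 of 28 proliferation genes were highest in replicate 1, with median log2 ratios of 0.21, 0.20 and 0.12. On the other side, 18 of 21 glycolysis genes and 66 of 81 cytosolic ribosomal genes were lowest in replicate 1, with median log2 ratios of -0.12 for both. Over all expressed genes 40.6% were highest and 41.8% lowest in that library. Mitf, at a log2 ratio of 0.49, and Tyr, at 0.47, were among the larger differences of the pigment programme, while Sox10 was at -0.04 and Mc1r at 0.05. Ifnar1 was at -0.06.

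**Figure D5:**
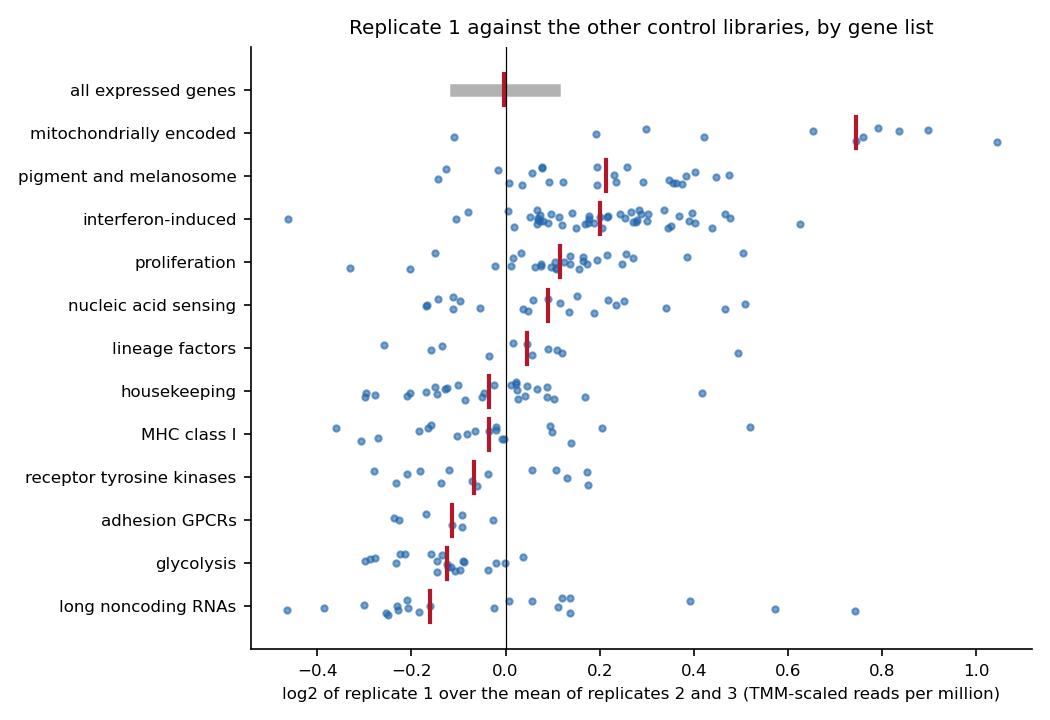
Log2 ratio of replicate 1 to the mean of replicates 2 and 3 for the expressed members of 12 gene lists (points, jittered vertically) with their medians (red bars), and the quartiles of all expressed genes (grey bar). Mitochondrially encoded genes have a median of 0.74, pigment genes 0.21 and interferon-induced genes 0.20, while glycolysis genes have -0.12.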

How the data were processed

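The members, gene lists and tests were chosen with earlier results of these data known, and 5 lists (ATF4 targets, ligands, iron and redox, secreted proteins, NF-kB) and 22 families were chosen after the values were seen. The library kit was VAHTS Universal V6, per the labels' protocols. Per the submitters' processing notes, fastp, HISAT2 and HTSeq were used on build GRCm39, without versions. RNA selection, strand use and annotation: not given in the sources used here. The authors deposited a table of read counts and a table of FPKM for 21676 genes and 9 libraries. Per the file headers, 3 columns named Con with replicates 1 to 3 are the control libraries, matched to the labels' control hairpin. The deposited FPKM followed from the deposited counts with whole-number gene lengths and the column sum as library size.

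Levels are FPKM as deposited. Spread was computed from counts scaled by TMM (edgeR 4.0.16, R 4.3.3), and the fitted biological variation is the root of edgeR's common dispersion with an intercept only. Libraries were compared per gene by a chi-square test of homogeneity (2 degrees of freedom) over 10729 expressed genes, at an adjusted p of 0.05. The test was also run on simulated libraries of 10729 genes, each of 200 genes raised in 1 library, with counting (Poisson) error alone. It called 43% of those raised 1.1-fold, 77% at 1.2-fold and 98.5% at 1.5-fold, with 4, 4 and 12 false calls. The simulation held no other variation between libraries, unlike the real data, so these rates need not hold for them. Ranges of neighbouring genes overlap where the lowest library of the higher gene does not exceed the highest of the lower. This does not pair the libraries, so a gene can lie above its neighbour in every library while their ranges overlap. Named genes were the 20 of highest mean FPKM, up to 6 highest members of each list, all members of the pigment, lineage, interferon ligand and receptor and sex chromosome lists, members with 0 reads, the 12 largest and 6 smallest CVs and the 10 largest ratios of replicate 1 each way among genes of at least 10 FPKM. A few genes selected this way are left unreported. Other genes are named outside this rule, chosen after their values were seen. Promoter windows and their strands come from RefSeq on GRCm38.p6, a build other than the authors', and were matched by symbol.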

Additional observations from a re-analysis of the deposited data

How the results depend on the processing

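No paired analysis was possible because only the control group is described. Over alternative thresholds 9764 to 12943 genes were expressed. Counting genes with at most 3 reads over the libraries as unread gave 5319 in place of 2685. The 100 genes with most reads held 17.3% of the reads, 15.7% without mitochondrially encoded genes and 30.2% as a share of summed FPKM, and mitochondrial genes held 4.35% of summed FPKM. The median CV was 6.29% over genes of at least 10 reads and 2.88 to 5.74% leaving out each replicate in turn. The fitted variation was 7.00% with no filter and 3.15 to 8.35% leaving out each replicate. Genes beyond counting error numbered 1368 to 5131 leaving out each replicate, with the lowest without replicate 1 and expressed genes chosen again each time. Of 102 list levels recomputed leaving out a replicate, 92 moved by less than the spread. The 45 of 45 gene levels did so by construction, since leaving out 1 of 3 values cannot move a mean by a full SD. With TPM, by construction 2.52 to 2.58 times FPKM, 1 of 34 list levels and 0 of 15 gene levels stayed within the spread, and with a pseudocount of 0.1 in place of 1, 8 of 34 list levels did. The sign of 64 of 64 list ratios of replicate 1 stayed the same under scalings chosen after the data were seen (total reads, and TMM without mitochondrial genes). Low levels are limited by depth, and splits between near-identical genes by the counting.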

Other observations

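A list of genes of the integrated stress response was chosen after the values were seen. ATF4 drives this programme when amino acids are short or proteins misfold. The levels of the list may follow from that choice, so they are no test of the programme. All 24 members were expressed, beside 49.5% of all genes and 64.3% of protein-coding genes. Their median was 127 FPKM, against 11.4 over expressed genes, and 14 had a mean of over 100 FPKM. Atf4 stood at 410, 408 and 388 FPKM, its partner and target Ddit3 (CHOP) at 298, 352 and 360, Trib3 at 254, 284 and 289, and Asns, which makes asparagine, at 300, 322 and 317. The chaperone Hspa5 (BiP) stood at 397 ± 12.7 FPKM and Nupr1 at 364 ± 21.4, while Xbp1 was at 25.9 ± 1.74 and the cystine transporter Slc7a11 at 14.3 to 17.8.

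Of 12 cathepsin genes 9 were expressed, with a median of 15.3 FPKM over the 12 and 1 unread. The aspartic protease Ctsd stood at 636, 687 and 699 FPKM, and 17 of 23 V-ATPase subunit genes, which acidify lysosomes and melanosomes, were expressed and 2 were unread. A list of secreted and matrix genes chosen after the values were seen had 10 of 12 expressed. Ptgds, a prostaglandin synthase, was at 626, 651 and 631 FPKM, Lgals1 at 617 ± 11.2, Psap at 360 ± 30.3 and Sparc at 206 ± 2.93, whereas the proteases Mmp2 and Mmp9 were at 0.445 and 0.0794 FPKM beside Mmp14 at 75.4 ± 1.64.

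Several families had few or no expressed members, beside 49.5% of all genes. Of 18 keratins and 47 olfactory receptors with a row 0 were expressed, and of 57 potassium channel genes 2. Of 48 clustered histone genes 4 were expressed, and most of these transcripts lack poly(A) tails. How RNA was selected is not given in the sources used here, and its part in the low histone levels was not tested. Of 29 Hox genes 15 were expressed (51.7%), a share near that of all genes and below the 64.3% of protein-coding genes. Hoxb9 at 30.4, 31.7 and 30.5 FPKM was the highest.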
